A study of Rattus norvegicus with 10 samples.

Results

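Fatty acid synthesis in the liver was followed through 9 genes: the transcription factors Srebf1 and Mlxipl, the synthesis enzymes Acly, Acaca and Fasn, the enzymes Elovl6 and Scd that lengthen and desaturate the product, Thrsp, which is induced with the pathway, and Pnpla3, a lipogenic target on lipid droplets. They were chosen as this list of gene names. A probe was matched to 7 of the 9 by the accession in the scanner files, with 9 probes in all, out of 13426 genes and 40945 probes tested. Srebf1 and Pnpla3 had no matched probe and are named only. All 9 probes were well above background on all 10 arrays.

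Liver RNA was taken from male Wistar rats in 3 groups. There were 3 control rats (0 Gy, no MASM), 3 rats after total-body irradiation alone (TBI, 6.5 Gy from a cobalt source) and 4 rats given MASM, a derivative of the plant alkaloid matrine, by gavage at 30 mg/kg a day for 3 days before the same irradiation (MASM + TBI). All livers were read 24 h after irradiation on 1 single-colour array per rat, and no group received MASM without irradiation. The dose is that of the labels, and the paper gives a slightly lower one. The labels give no age and no vehicle for the control rats.

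The array header gave 1 scan identifier to the 3 control rats and MASM + TBI rat 3. The 3 TBI rats shared another, and MASM + TBI rats 1, 2 and 4 shared the last. Arrays with the same scan identifier are taken here to be on 1 slide, which that header field does not itself state. Slide and group therefore cannot be told apart for TBI, and only MASM + TBI rat 3 gives a value against control within a slide. Cdkn1a, the p53 target that radiation induces, lay between 8.01 and 8.84 on the log2 scale in the control rats, 13.47 and 14.06 in the TBI rats and 12.80 and 13.58 in the MASM + TBI rats. The column names of the published heat map exchange control and TBI for these arrays, and the groups used here are those of the labels. All 8 hepatocyte markers were measured above background in every rat, and their summed signal, in log2 units, lay between 19.70 and 19.82 in the control rats, 19.58 and 19.88 in the TBI rats and 19.80 and 19.86 in the MASM + TBI rats. Quantile normalization gives every array the same set of signals, and genes near its top, such as Alb, carry that sum. Single markers varied more than the sum. In limma 0 of 8 passed against control after adjustment, beside 6.63% of all genes after TBI and 3.70% after MASM + TBI. At an unadjusted p under 0.05, 3 of 8 did after TBI and 5 of 8 after MASM + TBI, beside 25.3% and 20.5% of all genes. Estimates ran from -0.52 to 1.53 and from -0.40 to 1.13, highest for Tat, a tyrosine-degrading enzyme. Between 56.2% and 60.2% of spots were well above background on the control and MASM + TBI arrays and between 64.1% and 70.1% on the TBI arrays.

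De novo lipogenesis turns surplus carbohydrate into fat. Citrate leaves the mitochondrion, ATP citrate lyase (Acly) splits it into acetyl-CoA, acetyl-CoA carboxylase (Acaca) makes malonyl-CoA, and fatty acid synthase (Fasn) builds palmitate. Elovl6 elongates palmitate to stearate, and stearoyl-CoA desaturase (Scd) places the double bond that gives oleate and palmitoleate, monounsaturated fatty acids that are esterified into triglyceride. In the liver the pathway is switched on after feeding by insulin through SREBP-1c, the product of Srebf1, and by glucose through ChREBP, the product of Mlxipl, and both are set against fasting, fat oxidation and AMP-activated kinase.

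The upstream sequences of 4 genes are shown because the results turn on Scd, on a probe of its paralog Scd2 that followed it, and Acly and Thrsp are set beside them as members that did not pass the test. A promoter was listed for 6 of the 9 members. Each run is the 250 bases before the start in the RefSeq annotation of GRCr8, read 5′ to 3′ on the gene's own strand, and capitals mark CCAAT and GGGCGG on either strand, 2 short letter strings found in many promoters. The windows are chr1:253231732-253231981 (minus strand) for Scd, chr1:253118127-253118376 (plus strand) for Scd2, chr10:85963632-85963881 (minus strand) for Acly and chr1:161138965-161139214 (minus strand) for Thrsp.
Scd: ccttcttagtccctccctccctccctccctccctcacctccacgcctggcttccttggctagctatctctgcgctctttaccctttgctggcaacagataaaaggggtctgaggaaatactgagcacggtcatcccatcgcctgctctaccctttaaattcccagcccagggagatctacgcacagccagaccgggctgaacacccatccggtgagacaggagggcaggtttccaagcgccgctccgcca
Scd2: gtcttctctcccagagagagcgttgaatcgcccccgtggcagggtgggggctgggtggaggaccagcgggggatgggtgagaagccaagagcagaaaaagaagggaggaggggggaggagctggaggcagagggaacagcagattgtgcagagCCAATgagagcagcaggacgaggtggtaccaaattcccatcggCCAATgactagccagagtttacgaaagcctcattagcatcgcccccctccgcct
Acly: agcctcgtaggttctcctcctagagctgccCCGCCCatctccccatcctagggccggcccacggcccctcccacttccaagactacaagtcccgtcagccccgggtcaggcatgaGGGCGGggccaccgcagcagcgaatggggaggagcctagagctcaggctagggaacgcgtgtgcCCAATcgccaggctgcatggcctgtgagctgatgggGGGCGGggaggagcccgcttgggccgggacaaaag
Thrsp: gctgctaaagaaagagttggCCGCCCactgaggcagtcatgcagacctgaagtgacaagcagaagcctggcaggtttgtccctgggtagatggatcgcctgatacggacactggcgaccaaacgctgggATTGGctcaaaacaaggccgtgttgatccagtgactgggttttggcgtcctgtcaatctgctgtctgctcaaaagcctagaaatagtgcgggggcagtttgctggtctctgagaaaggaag
CCAAT was found in 34% of 33469 promoters of this length and GGGCGG in 30.5%. The Scd window held neither string, that of Scd2 held CCAAT 2 times, that of Acly held CCAAT 1 time and GGGCGG 3 times, and that of Thrsp held each 1 time. TCACNCCAC, the letters of a sterol response element, occurred in 0.974% of promoters and CACGTG in 5.59%, and neither was in these 4 windows on either strand. These are matches of letters in short windows only and say nothing of which factors bind there.

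The transcription factor gene Mlxipl was the only measured member that encodes a regulator of the pathway's transcription. Its log2 signal was 10.27, 10.07 and 10.45 in control rats 1 to 3, 10.16, 10.01 and 9.86 in TBI rats 1 to 3, and 9.93, 9.99, 10.19 and 9.87 in MASM + TBI rats 1 to 4. The 3 groups overlapped, with the irradiated rats mostly at the lower end of the control range or just under it. TBI differed from control by -0.26 (SE 0.13, limma adjusted p = 0.281) and MASM + TBI from control by -0.27 (SE 0.12, adjusted p = 0.312), neither past the threshold of an adjusted p of 0.05.

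**Figure D1:**
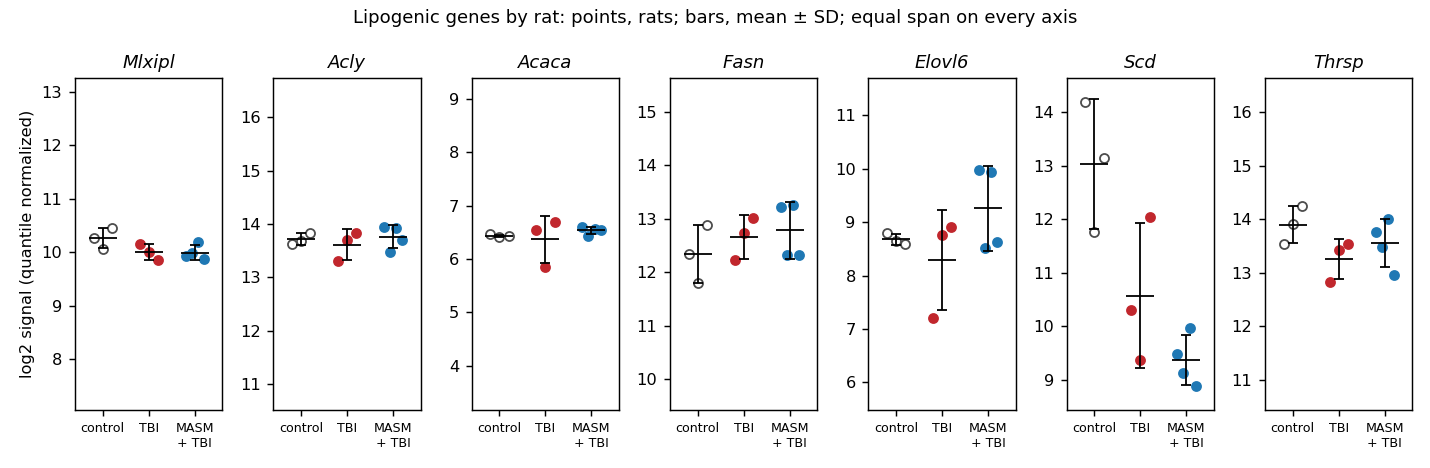
Log2 signal, quantile normalized, of the 7 measured lipogenic genes in each rat, by group (open grey, control, n = 3; red, TBI, n = 3; blue, MASM + TBI, n = 4), with the group mean and SD as a black bar; every panel spans the same number of log2 units around its own centre. The 4 MASM + TBI rats lie below all control rats for Scd, and MASM + TBI rats 1 and 3 stand above rats 2 and 4 for Fasn and Elovl6.

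The 3 enzymes that make palmitate showed no difference that passed the test in any comparison. Acly read 13.63, 13.68 and 13.84 in the control rats, 13.30, 13.71 and 13.84 in the TBI rats, and 13.95, 13.48, 13.92 and 13.70 in the MASM + TBI rats. Acaca, which sets the pace of the pathway, read 6.46, 6.41 and 6.43 in the control rats, 6.54, 5.86 and 6.70 in the TBI rats and 6.60, 6.43, 6.56 and 6.55 in the MASM + TBI rats. The groups overlapped for both genes, and Acaca was lowest in TBI rat 2. The intervals for TBI minus control ran from -0.49 to 0.29 for Acly and from -0.50 to 0.37 for Acaca, and those for MASM + TBI minus control from -0.32 to 0.41 and from -0.31 to 0.51.

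Fasn varied more from rat to rat than these. Its signal was 12.34, 11.79 and 12.88 in the control rats, 12.22, 12.74 and 13.02 in the TBI rats, and 13.22, 12.32, 13.26 and 12.32 in the MASM + TBI rats. MASM + TBI rats 1 and 3 were highest and the group's other 2 rats lay within the control range. The differences from control were 0.32 for TBI (SE 0.38, 95% interval -0.54 to 1.19, limma adjusted p = 0.643) and 0.45 for MASM + TBI (SE 0.35, interval -0.36 to 1.26, adjusted p = 0.613). Without each rat in turn they ran from 0.05 to 0.60 and from 0.17 to 0.72, lowest without control rat 2 and highest without control rat 3, and within the shared slide MASM + TBI rat 3 was 0.93 above the control mean. A second Fasn probe gave 0.33 and 0.41.

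Elovl6 showed the same split among the MASM + TBI rats. It read 8.79, 8.64 and 8.60 in the control rats, 7.21, 8.76 and 8.91 in the TBI rats, and 9.97, 8.51, 9.93 and 8.63 in the MASM + TBI rats. The control rats lay close together, with TBI rat 1 well below them and MASM + TBI rats 1 and 3 above them. Against control the difference was -0.38 (SE 0.55, limma adjusted p = 0.709) after TBI and 0.58 (SE 0.51, adjusted p = 0.661) after MASM + TBI. The first was 0.16 without TBI rat 1, and the second ran from 0.35 to 0.83 without each rat in turn and was 1.25 within the slide that MASM + TBI rat 3 shared with the control rats. The second probe, at -0.25 and 0.70, gave the same signs.

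Scd was the exception. Its log2 signal was 14.19, 11.76 and 13.14 in control rats 1 to 3, 10.31, 9.36 and 12.04 in TBI rats 1 to 3, and 9.48, 9.12, 9.96 and 8.88 in MASM + TBI rats 1 to 4. All 4 MASM + TBI rats were below all 3 control rats, while TBI rat 3 reached above control rat 2. The MASM + TBI group was 12.7-fold lower than control, a difference of -3.67 (SE 0.71, 95% interval -5.30 to -2.04, limma adjusted p = 0.0355). TBI alone differed from control by -2.46 (SE 0.76, interval -4.21 to -0.72, limma adjusted p = 0.102), which missed the threshold. In bulk liver RNA fewer cells of a type and less RNA per cell cannot be told apart. The summed hepatocyte markers of the MASM + TBI rats lay within the range of the TBI rats. They reached from inside the control range to just above it. Very bright genes carry that sum, and quantile normalization holds such signals alike across arrays, so it cannot show the share of hepatocytes. Within the slide shared with the control rats, MASM + TBI rat 3 was 3.08 below the control mean.

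The call on Scd rested on few rats. It was lost with the slide as a fixed block (difference -3.08, limma adjusted p = 0.329), with the methods' t-test after adjustment over all probes (adjusted p = 0.274) and with the replicate number as a block (adjusted p = 0.0783), and it held in 3 of 10 fits that left out 1 rat. At the methods' own threshold, an unadjusted p under 0.05 with a fold change over 1.5, it passed. Leaving out control rat 1 gave an adjusted p of 0.0855, control rat 3 of 0.119 and TBI rat 1 of 0.0516, while leaving out MASM + TBI rats 1, 2, 3 and 4 gave 0.0929, 0.0791, 0.0603 and 0.0896, with a difference between -4.31 and -3.09 over the 10 fits. For TBI minus control the difference ran from -3.20 to -1.86 over the 10 fits, with -1.86 without TBI rat 2 (limma adjusted p = 0.224) and -1.88 without control rat 1 (adjusted p = 0.241). Scd passed there in 1 of 10 fits that left out 1 rat, without TBI rat 3 (-3.20, limma adjusted p = 0.0387). Of 10 other settings it passed in 1, the slide as a random block (-2.55, limma adjusted p = 0.0267). That setting cannot separate TBI from its slide. Its consensus correlation was below 0, at -0.133, and the SE was 0.61 against 0.76 in the main fit.

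**Figure D2:**
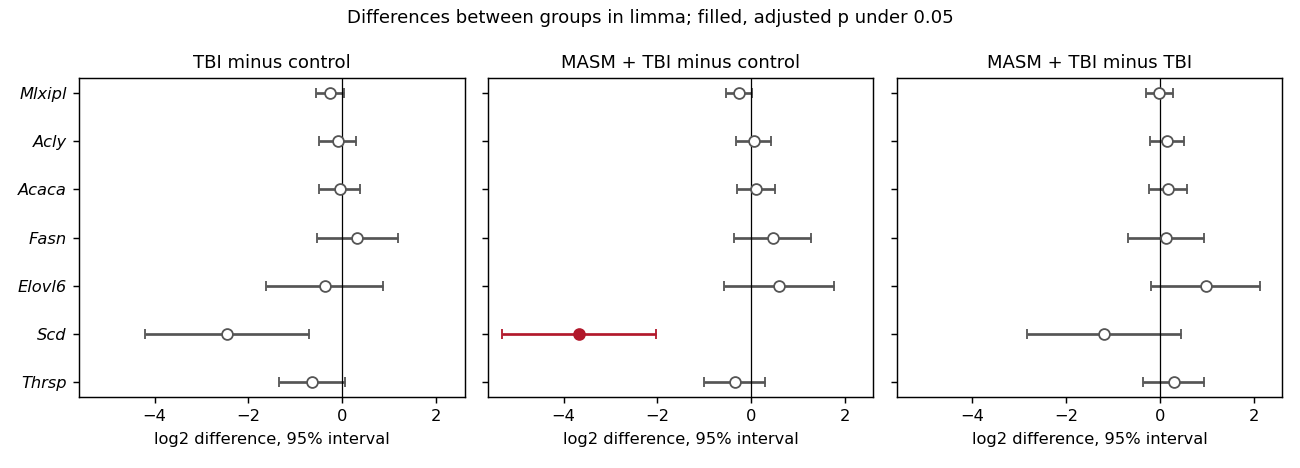
Difference in mean log2 signal between groups for the 7 measured lipogenic genes, one panel per comparison, with 95% intervals from limma over 10 rats; filled red, adjusted p under 0.05. Only the interval for Scd in MASM + TBI minus control belongs to a gene that passed the test, at -3.67, and the intervals for Mlxipl, Acly and Acaca are the narrowest, each including 0.

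Scd2, the paralog of Scd that is also a stearoyl-CoA desaturase, lies on the same chromosome and has Scd among its older names in RefSeq. It had 3 probes, which disagreed. The probe A_44_P194152 read 10.97, 8.80 and 10.16 in the control rats, 7.40, 6.88 and 8.52 in the TBI rats and 6.71, 6.52, 7.02 and 6.25 in the MASM + TBI rats. Its order of rats within each of the 3 groups was that of the Scd probe, and both irradiated groups lay below all control rats. The difference was -3.35 (SE 0.54, limma adjusted p = 0.0177) for MASM + TBI minus control and -2.38 (SE 0.58, adjusted p = 0.0509) for TBI minus control. The first call was lost with the methods' t-test after adjustment (adjusted p = 0.284), the replicate block (0.0576) and the slide as a fixed block (0.212), and without control rat 3 (0.0737) or MASM + TBI rats 1 (0.0524) or 4 (0.0530), and the second comparison passed in 5 of 9 other settings.

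The other two Scd2 probes gave no difference that passed the test. The one that was brightest on average over the 10 rats, A_42_P813567, read 8.01, 7.55 and 7.95 in the control rats, 7.53, 8.61 and 8.95 in the TBI rats and 8.23, 7.91, 7.90 and 7.54 in the MASM + TBI rats. Its difference from control was 0.53 after TBI (limma adjusted p = 0.395) and 0.06 after MASM + TBI (adjusted p = 1), and its difference between the irradiated groups was -0.47 (adjusted p = 0.507), from -0.89 without TBI rat 1 to -0.18 without TBI rat 3. The third probe, A_44_P198396, well above background on 9 of 10 arrays, lay between 4.20 and 5.02 in 9 rats and at 7.11 in MASM + TBI rat 1. Whether the probe that followed Scd also bound Scd RNA was not tested, so that probe is not a second measurement of either gene.

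**Figure D3:**
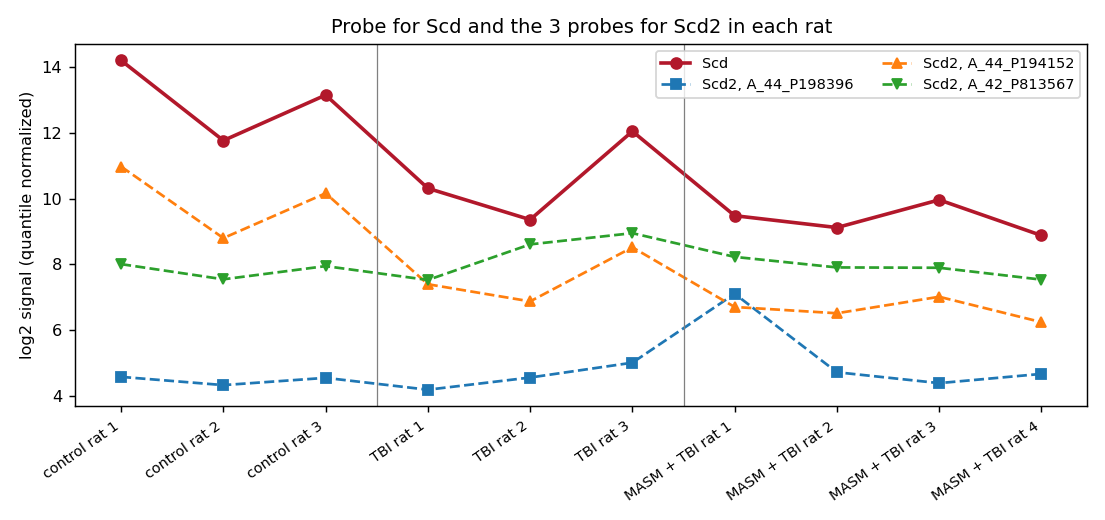
Log2 signal, quantile normalized, of the Scd probe (red circles) and the 3 Scd2 probes (dashed lines, named by probe) in each of the 10 rats, with grey lines between the groups. The orange Scd2 probe falls with Scd from the control rats to the MASM + TBI rats, the green one stays between 7.53 and 8.95, and the blue one is high in MASM + TBI rat 1 only, at 7.11.

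Thrsp, whose product (Spot 14) is induced along with the synthesis enzymes by thyroid hormone and carbohydrate, was lower in all 3 TBI rats than in any control rat, by a small margin, with no difference that passed the test. It read 13.54, 13.92 and 14.24 in the control rats, 12.83, 13.42 and 13.53 in the TBI rats, and 13.77, 13.48, 14.00 and 12.95 in the MASM + TBI rats. TBI rat 3 and control rat 1 all but met, and the MASM + TBI rats overlapped both groups. The difference for TBI minus control was -0.64 (SE 0.31, limma adjusted p = 0.25) and for MASM + TBI minus control it was -0.35 (SE 0.29, adjusted p = 0.627).

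Counted over the pathway, 0 of the 7 measured members passed limma's adjusted threshold for TBI minus control, where 6.63% of all genes did. At an unadjusted p under 0.05 the count was 1 (Scd), against 25.3% of all genes, and the methods' t-test gave 0 either way. All TBI rats lay below all control rats for 1 of 7 (Thrsp), as they did for 17.5% of all genes. For MASM + TBI minus control 1 of 7 passed (Scd, lower), where 3.70% of all genes did and 2.46% did in the lower direction, 1 of 7 (Scd) passed at an unadjusted p under 0.05, where 20.5% did, and all MASM + TBI rats lay below all control rats for 1 of 7 (Scd), as for 12.1% of all genes. With 7 genes a single gene sets the share, and the counts for TBI are not above those of all genes. The median difference of the members was -0.26 for TBI and 0.05 for MASM + TBI, beside -0.01 and 0 for all genes. At the methods' own threshold, the methods' t-test with equal variances called 0 of 7 after TBI, 1 of 7 (Scd) after MASM + TBI and 0 of 7 between the irradiated groups, beside 9.50%, 8.12% and 5.41% of all genes. With unequal variances the counts of members were the same, beside 7.43%, 6.75% and 3.37%.

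MASM + TBI was also compared with TBI alone, the comparison of irradiated rats with and without MASM. Of the 7 members 0 passed the adjusted threshold in limma, the count was also 0 at an unadjusted p under 0.05 and with the methods' t-test after adjustment, beside 1.08% of all genes after adjustment and 16.5% before it. Scd was lower in the MASM + TBI rats by 1.21 on the log2 scale on average, with an interval from -2.84 to 0.43 (limma adjusted p = 0.441), and Elovl6 was higher by 0.97, with an interval from -0.20 to 2.13 (adjusted p = 0.387). The TBI rats overlapped the MASM + TBI rats for both. When each rat was left out in turn, the Scd difference ran from -1.81 (without TBI rat 2) to -0.47 (without TBI rat 3) and that of Elovl6 from 0.42 (without TBI rat 1) to 1.28 (without TBI rat 3). Mlxipl was held more tightly, at -0.02 with an interval from -0.30 to 0.27, and Acly, Acaca, Fasn and Thrsp lay between 0.12 and 0.29.

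The members differed in how far rats of 1 group spread. The pooled standard deviation within groups was 1.02 log2 units for Scd, larger than for 99.5% of 8439 genes well above background on all arrays, 0.73 for Elovl6 (98.0%), 0.50 for Fasn (93.5%) and 0.40 for Thrsp (88.5%). Acaca at 0.24, Acly at 0.22 and Mlxipl at 0.16 were near the median of all those genes, 0.18. The intervals of the differences were wide or narrow in the same order, widest for Scd and narrowest for Mlxipl.

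Part of that spread was shared between genes. MASM + TBI rats 1 and 3 were above rats 2 and 4 for Fasn, Elovl6, Acly, Thrsp, Scd (9.48 and 9.96 against 9.12 and 8.88) and, narrowly, Acaca (6.60 and 6.56 against 6.43 and 6.55). Mlxipl departed from that split, with rat 1 at 9.93 below rat 2 at 9.99. Sqle, the squalene epoxidase of cholesterol synthesis, had it too (12.49 and 12.67 against 11.28 and 11.72), whereas Lss of the same pathway did not (10.50 and 10.67 against 9.51 and 10.54). TBI rat 1 was the lowest of its group for Acly, Fasn, Elovl6, Thrsp and Sqle (10.27 against 11.68 and 11.85), while the lowest was rat 2 for Scd and Acaca and rat 3 for Mlxipl. MASM + TBI rats 1 and 3 had different scan identifiers, read here as different slides. Sqle and Lss were set beside the members after their values were seen.

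**Figure D4:**
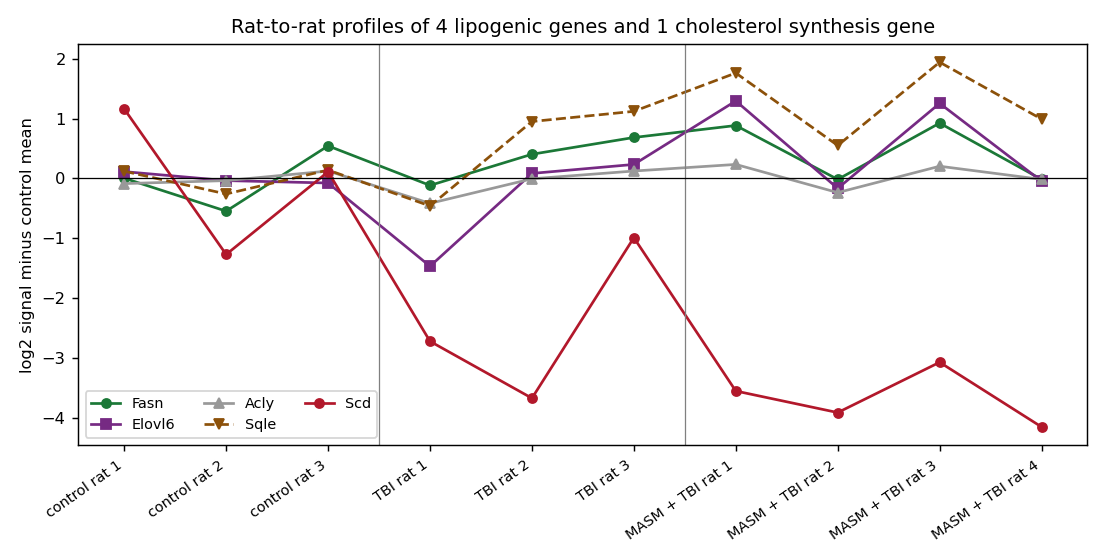
Log2 signal minus the mean of the 3 control rats for 4 lipogenic genes (solid lines) and the cholesterol synthesis gene Sqle (dashed line) in each rat, with grey lines between the groups. Fasn, Elovl6 and Sqle peak together in MASM + TBI rats 1 and 3, while Scd lies about 3 to 4 units below control in all 4 MASM + TBI rats.

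By Pearson correlation over the 10 arrays, the genes most like the mean standardized profile of the 7 members were Habp2 (r = 0.96), Sec11a (0.92), Copg2 (0.92), Tmem82 (0.91) and Ptgis (0.91), the highest of 8432 candidates. Those most like Scd alone were Plce1 (r = 0.97), Apaf1 (0.95), Veph1 (0.94), Zdhhc1 (0.94) and Bbs2 (0.93), a list added after the data were seen. With 10 points that share 3 groups and 3 slides, these are descriptions of likeness only.

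Around the members, 71 of 79 genes of supply, elongation, control, triglyceride, cholesterol and oxidation lists had a probe. For TBI minus control 4 of the 71 passed the test, 2 higher and 2 lower, and for MASM + TBI minus control 3, 1 higher and 2 lower, beside 6.63% and 3.70% of all genes. In limma 0 passed for MASM + TBI minus TBI, where 8 of 71 did at an unadjusted p under 0.05 and 0 by the methods' t-test after adjustment, beside 1.08% of all genes after adjustment and 16.5% before it. Over the other settings the counts ranged from 0 to 20, from 0 to 18 and from 0 to 3.

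**Figure D5:**
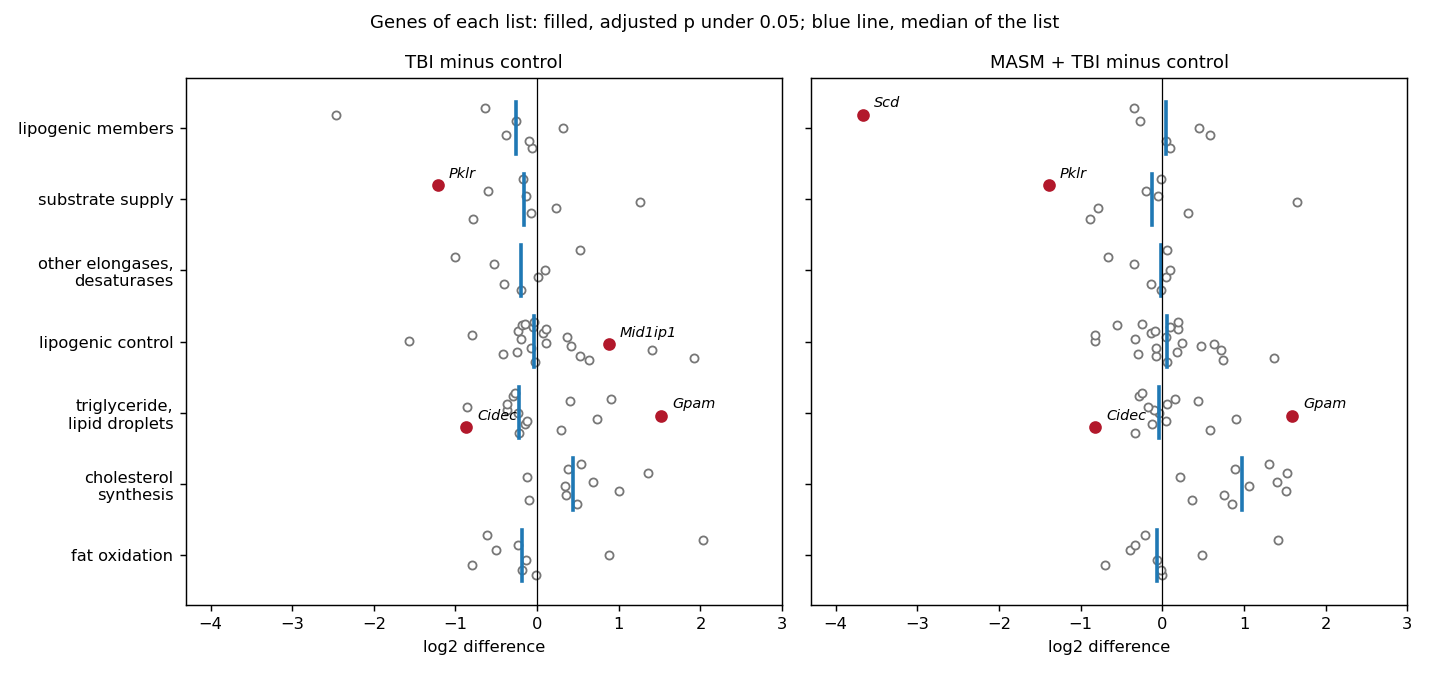
Log2 difference of each gene, 1 probe a gene, in the 7 measured lipogenic members and the 6 related lists, for TBI minus control (left) and MASM + TBI minus control (right); filled red and named, adjusted p under 0.05; blue line, the median of the list. Scd stands apart on the right at -3.67, Gpam rose and Pklr and Cidec fell in both panels, and the cholesterol list lies right of 0 with a median of 0.44 and 0.97.

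Among genes that feed carbon into lipogenesis, 1 of 8 passed in each comparison with control. Pklr, liver pyruvate kinase and a classical ChREBP target, read 11.55, 10.74 and 11.46 in the control rats, 10.31, 9.87 and 9.92 in the TBI rats and 9.93, 9.64, 10.13 and 9.74 in the MASM + TBI rats. It fell by 1.22 (SE 0.23, limma adjusted p = 0.0248) after TBI and by 1.39 (SE 0.22, adjusted p = 0.0165) after MASM + TBI, and within the shared slide the difference was -1.12 (adjusted p = 0.221 with the slide as a fixed block). The call after TBI was lost without control rats 1 or 3 or TBI rats 2 or 3 (adjusted p from 0.0511 to 0.0859) and with only those groups in the fit (0.0832), and that after MASM + TBI without control rat 3 (0.0722) or MASM + TBI rat 4 (0.0503). With the methods' t-test after adjustment both were lost (0.270 and 0.250).

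Of the other elongases and desaturases 0 of 7 passed in limma in either comparison with control, and 1 of 7 did at an unadjusted p under 0.05 in each, beside 0 by the methods' t-test after adjustment. That gene was Fads2, the delta-6 desaturase, at -1.01 (adjusted p = 0.0735, past the threshold in 3 of 10 other settings) after TBI and -0.66 (adjusted p = 0.235) after MASM + TBI. All 3 TBI rats, at 8.96, 9.62 and 9.74, and all 4 MASM + TBI rats, at 10.20, 9.19, 9.93 and 9.82, lay below the control rats at 10.46, 10.42 and 10.46.

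In the lipogenic control list 1 of 22 passed after TBI and 0 after MASM + TBI (6 at an unadjusted p under 0.05 there). Mid1ip1, whose product pairs with that of Thrsp and activates acetyl-CoA carboxylase, read 11.87, 11.77 and 12.37 in the control rats, 12.94, 12.93 and 12.77 in the TBI rats and 12.83, 12.51, 12.54 and 12.67 in the MASM + TBI rats. It rose by 0.88 after TBI (SE 0.16, limma adjusted p = 0.0215), whereas its partner Thrsp had an estimate below 0. That call was lost without control rats 1 or 2 or TBI rats 1 or 2 (adjusted p from 0.0508 to 0.0668), with only the TBI and control rats in the fit (0.0793), with the replicate block (0.0790) and with the methods' t-test after adjustment (0.296). Insig1, the anchor that holds SREBP proteins in the endoplasmic reticulum and is itself an SREBP target, read 13.10, 13.54 and 13.11 in the control rats and 14.39, 15.28 and 15.83 in the TBI rats. Its 4 probes gave between 1.92 and 2.17 for TBI minus control, with a limma adjusted p of 0.0556 for the brightest, which passed in 6 of 10 other settings (0.0493 with the replicate block) and in 2 of 10 fits that left out 1 rat. For MASM + TBI minus control it gave 1.37 (adjusted p = 0.156) and passed in 0 of 11 other settings. Nr0b2, the repressor SHP, had the largest difference of the list between irradiated groups, at 0.75 (adjusted p = 0.372), or 0.41 without TBI rat 2 and 1.17 without TBI rat 3.

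For triglyceride synthesis and lipid droplets 2 of 15 passed in each comparison with control. Gpam, the mitochondrial acyltransferase that commits fatty acids to glycerolipid, read 6.78, 6.56 and 6.98 in the control rats, 8.33, 8.41 and 8.14 in the TBI rats and 8.46, 8.40, 8.12 and 8.48 in the MASM + TBI rats. It rose 2.86-fold after TBI (1.52, SE 0.14, limma adjusted p = 0.00139) and 3.01-fold after MASM + TBI (1.59, SE 0.13, adjusted p = 0.00101). With normexp the differences were 0.88 and 0.90, with the slide as a fixed block the second was 1.35 (adjusted p = 0.0131), and the methods' t-test after adjustment was the 1 setting in which Gpam did not pass. Cidec, a lipid droplet fusion protein, read 10.61, 10.46 and 10.41 in the control rats, 9.81, 9.32 and 9.76 in the TBI rats and 9.57, 9.58, 9.90 and 9.66 in the MASM + TBI rats, and it fell by 0.87 and by 0.82 (adjusted p = 0.0173 and 0.0222). Cidec did not pass for TBI without control rats 1 or 2 (0.0550 and 0.0507), nor for MASM + TBI without any 1 control rat or without MASM + TBI rats 1, 2 or 4 (from 0.0562 to 0.0738) or with the slide as a fixed block (-0.60, 0.283), and it passed in 7 of 10 and 7 of 11 other settings. Plin5, another droplet protein, was well above background on all 3 TBI arrays but on 1 of 4 MASM + TBI arrays, so its values there are near background. It read 4.92, 4.38 and 4.75 in the TBI rats and 3.44, 4.52, 3.81 and 3.92 in the MASM + TBI rats, a difference of -0.76 (adjusted p = 0.333) that was -0.11 with normexp.

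Of the 10 cholesterol synthesis and uptake genes, 0 passed limma's adjusted threshold against control, as with the methods' t-test after adjustment. At an unadjusted p under 0.05 the count was 1 of 10 after TBI and 7 of 10 after MASM + TBI, all higher, where 25.3% and 20.5% of all genes passed in either direction. The estimates were above 0 for 8 of 10 and 10 of 10, with medians of 0.44 and 0.97, and for 10 of 10 between the irradiated groups, with a median of 0.49. Lss, lanosterol synthase, had the largest, at 1.36 (adjusted p = 0.0775) and 1.53 (adjusted p = 0.0623), each past the threshold in 3 other settings, and Sqle the largest for MASM + TBI minus TBI, at 0.77 (adjusted p = 0.436), or 0.27 without TBI rat 1. In fat oxidation 0 of 9 passed in either comparison with control by limma or the methods' t-test after adjustment, with 6 and 4 at an unadjusted p under 0.05. Pdk4, which is induced in fasting and spares pyruvate, had the largest estimates there, at 2.03 (adjusted p = 0.0793) and 1.42 (adjusted p = 0.219), and -0.61 between the irradiated groups (adjusted p = 0.606). Without control rat 1 the first 2 were 1.43 and 0.82, with normexp they were 1.33 and 0.89, and the first passed in 4 of 10 other settings (0.0416 with the replicate block). The third ran from -0.86 without TBI rat 1 to -0.34 without MASM + TBI rat 4.

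Markers of other cells moved with the groups in part. Of the adipocyte list, Adipoq, Lep and Retn were above background on no array, and Cfd, Cidea and Fabp4 on all 10. The list's sum, in log2 units, lay between 11.11 and 11.68 in the control rats and 11.83 and 12.52 in the TBI rats. In the MASM + TBI rats it lay between 11.29 and 11.76. Cfd, the brightest, carried most of that sum. Of the list's 6 genes with a probe, 1 passed, Cfd, higher after TBI by 1.14 (limma adjusted p = 0.0479). After TBI 4 of 6 had estimates below 0, and the other above 0 was Retn. Of the 4 lymphocyte markers with a probe, Cd79b was at least 4.98-fold lower after TBI and at least 2.55-fold lower after MASM + TBI, and the list's sum lay between 8.70 and 9.07 in the control rats and between 7.40 and 8.48 in the irradiated rats. Kupffer cell markers summed to between 15.51 and 16.02 in the control rats, 15.50 and 16.38 in the TBI rats and 15.17 and 15.48 in the MASM + TBI rats. The last lay below all rats of both other groups, narrowly. For MASM + TBI minus TBI all 5 Kupffer estimates were below 0. Of these 0 passed after adjustment in limma and 3 did at an unadjusted p under 0.05, beside 1.08% and 16.5% of all genes. The endothelial sum lay between 13.62 and 13.93 in the control rats, below the 14.03 to 14.33 of the TBI rats. It overlapped that of the MASM + TBI rats at 13.84 to 14.17. Of the 3 endothelial markers 0 passed the adjusted threshold in limma. After TBI 2 of 3 did at an unadjusted p under 0.05, beside 25.3% of all genes. Stellate cell markers summed to between 11.82 and 12.21 in the control rats, 11.60 and 12.04 in the TBI rats and 11.44 and 11.79 in the MASM + TBI rats, the last below all control rats. Of those 5 markers 1 passed in both comparisons with control, Lrat, which stores retinol as its ester, lower by 0.62 (limma adjusted p = 0.0116) and by 0.60 (adjusted p = 0.0147). Their part in the differences of the lipogenic genes was not tested.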

How the data were processed

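Per the file headers, Agilent Feature Extraction 10.7.3.1 had computed the spot intensities that the authors deposited, on a linear scale, background-subtracted and not normalized between arrays. The deposited value table held the same numbers (largest difference 0).

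From these, 1639 control spots and outlier spots (76 to 112 per array) were left out, and 0 spots were saturated. Intensities were converted to log2 values, quantile normalized and averaged per probe. Symbols came by accession from RefSeq (GRCr8) for 16968 of 41012 probes, and each gene was read from its brightest probe over 10 arrays. Differences came from limma 3.58.1 in R 4.3.3, with a mean per group over all 10 arrays and the Benjamini-Hochberg adjustment over 40945 probes, and a gene passed at an adjusted p under 0.05. The fit was tested on simulated data. The number of rats limits the precision. Python 3.11.15 and matplotlib 3.10.9 drew the plots.

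The members and gene lists were chosen with earlier results of these data known. All members are named. Of the related lists, genes that passed and the gene with the largest difference in each list and comparison are named, except for some that are not reported here, and single markers were named after their values were seen. Marker lists were summed on the linear scale per array, and the sum not given above, of bile duct markers, ran from 8.62 to 9.04 in the control rats, 8.44 to 9.35 in the TBI rats and 8.43 to 8.96 in the MASM + TBI rats. A bound of at least N-fold sets the brighter group against the lowest signal well above background.

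Results were recomputed with 75th percentile scaling, with normexp (offset 50) on median pixel signals, from the deposited table, without dim probes, with 2 groups in the fit, by the methods' t-test (run as a Welch test with the same adjustment, which the methods do not state), with a trended robust prior, with the replicate number or the slide as a block, from the mean of a gene's probes, and without each rat. For the related lists these were added after seeing the data. The methods' t-test at its own threshold, an unadjusted p under 0.05 with a fold change over 1.5, was also added then, with equal and with unequal variances.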

Additional observations from a re-analysis of the deposited data

Results flagged for a closer look

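Lss, the lanosterol synthase gene of the cholesterol list, read 9.51 in MASM + TBI rat 2, while the other 3 rats of that group lay between 10.50 and 10.67, a gap larger than an outlier test at the 95% level allows for 4 rats. It was the only value so marked among 21 genes examined in that group, and chance marks about 1 in 20.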

How the results depend on the processing

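Of the 7 members, those that passed for TBI minus control numbered 0 in every setting except the slide as a random block (1, Scd; consensus correlation -0.133) and ranged from 0 to 1 when each rat was left out. For MASM + TBI minus control the count was 1, but 0 with the methods' t-test after adjustment, the replicate block and the slide as a fixed block, and from 0 to 1 without each rat. For MASM + TBI minus TBI it was 0 throughout. Scd kept its direction in every setting, between -2.55 and -2.33, between -3.80 and -3.08 and between -1.25 and -1.02 in the 3 comparisons, and without each rat from -3.20 to -1.86, from -4.31 to -3.09 and from -1.81 to -0.47. The replicate block gave -3.51 for Scd in MASM + TBI minus control (adjusted p = 0.0783). Same-numbered rats share only a number: the correlations of their deviations ran from -0.13 to 0.17 over 9 pairs, with 1 over 0.1. Estimates near 0 changed sign. Thrsp in MASM + TBI minus control was 0.10 with the slide as a fixed block, and Mlxipl in MASM + TBI minus TBI was 0 with 75th percentile scaling, 0.01 with normexp and 0.03 with the replicate block. Without each rat, TBI minus control ran from -0.21 to 0.06 for Acly, -0.23 to 0.19 for Acaca and -0.69 to 0.16 for Elovl6. MASM + TBI minus control ran from -0.02 to 0.14 for Acly. MASM + TBI minus TBI ran from -0.09 to 0.06 for Mlxipl, -0.10 to 0.30 for Fasn, -0.09 to 0.33 for Acaca and -0.01 to 0.26 for Acly. The related lists moved more. For TBI minus control their count of 4 became 12 with 75th percentile scaling, 7 with normexp, 11 without dim probes, 1 with 2 groups in the fit, 0 with the methods' t-test after adjustment, 5 with the trended robust prior, 7 with the replicate block, 20 with the slide as a random block, 14 and 12 with the methods' t-test at its own threshold (equal and unequal variances) and from 1 to 6 without each rat. For MASM + TBI minus control their count of 3 became 10 with normexp, 8 without dim probes, 0 with the methods' t-test after adjustment, 7 with the trended robust prior, 12 with the slide as a random block, 5 with the mean of a gene's probes, 18 and 16 at the methods' threshold and from 1 to 6 without each rat. For MASM + TBI minus TBI their count of 0 became 3 with 75th percentile scaling, 2 with the slide as a random block, 1 and 2 at the methods' threshold and from 0 to 1 without each rat. The causes were not tested. Of the recomputed differences of single genes, 842 kept direction and side of the threshold, 50 lost the call, 44 gained it and 17 changed sign. All TBI rats are on 1 slide, so slide and TBI cannot be told apart, and 3 or 4 rats a group leave wide intervals for Scd and Elovl6.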
